A study of Sus scrofa with 6 samples.

Results

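Cytokines, chemokines and their receptors were examined on the arrays of renal medulla from pigs after cardiopulmonary bypass (CPB) and from Sham pigs. Members were the probe sets that the array annotation gives 1 gene symbol and whose symbol names an interleukin or its receptor, a CC or CXC chemokine or its receptor, a tumour necrosis factor (TNF) superfamily ligand or receptor, a colony-stimulating factor (CSF1 to CSF3), LIF, OSM, TNF, AMCF-II, ACKR3 or MIF. This gave 84 probe sets of 71 genes, out of 23999 probe sets compared, of which 10069 are annotated with 1 symbol. They comprised 56 probe sets of 46 ligand genes, 27 probe sets of 24 receptor genes and 1 probe set of IL18BP, a secreted protein that binds interleukin-18. No probe set was found under the symbols CSF1, OSM and ACKR3, and 2 probe sets annotated with both a receptor symbol of the rule and another gene were left out.

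The tissue came from adult, female, Large White-Landrace crossbred pigs. The CPB group was 3 pigs that had 2.5 hours of bypass under general anaesthesia, and the Sham group was 3 pigs that had 2.5 hours of general anaesthesia alone. Both groups also had neck dissection and systemic heparin, per the study's methods, and the medulla was collected 24 hours after the intervention. RNA of each pig was hybridised to 1 Affymetrix porcine array, so each group holds 3 animals, and values below are listed in replicate order within a group.

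Cytokines and chemokines are secreted or membrane-bound proteins that carry signals between cells. Chemokines bind receptors coupled to G proteins and direct the migration of leukocytes, most interleukins act through receptors that activate JAK kinases and STAT factors, and TNF and interleukin-1 act through receptors that activate NF-kB. In the kidney, tubular epithelium, endothelium and resident or infiltrating leukocytes can all make them, and many are known for a rapid rise of their mRNA after ischaemia or toxic injury.

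The deposited values are RMA intensities on a linear scale without unit, and the median intensity of an array lay between 94.3 and 96.5. The study's methods describe the blocks as outer medullary tissue. Of markers for the thick limb and collecting duct, segments that run through medulla, 8 of 16 were measured and 1 of the 8 was near background. Their summed intensity was 6295 to 13259 on CPB arrays and 6836 to 11921 on Sham arrays. Markers of proximal tubule, a segment that lies mainly in cortex, were also present (18 of 30 measured), and which part of the kidney they came from was not tested. The summed intensity of these markers was 42915, 5907 and 47438 in CPB 1 to 3, against 4143, 36473 and 14447 in Sham 1 to 3. Markers of urothelium (5 of 15 measured, 1 near background) ran the other way, with sums of 647, 2856 and 638 on CPB arrays, against 1541, 472 and 3146 on Sham arrays. No marker was at 0. In such bulk tissue, fewer cells of a type and less RNA per cell cannot be told apart.

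After CPB, 0 of the 84 member probe sets met the study's threshold (1.6-fold or more in either direction and p under 0.05 before adjustment), which 0.304% of all probe sets met. Every difference given is in log2 units, the mean of CPB minus that of Sham, and was tested with limma and Benjamini-Hochberg adjustment over all 23999 probe sets, and 0 members, like 0% of all probe sets, passed an adjusted p of 0.05 (smallest adjusted p of a member 0.995). An unadjusted p under 0.05 was found for 2 members, which is 2.38%, against 1.4% of all probe sets. They were the receptor CCR1 and the ligand IL15, and both were lower in CPB, against 0.7% of all probe sets in that direction. With CPB 1, CPB 3, Sham 1 or Sham 3 left out, 0 members had such a p, against 0.675% to 0.829% of all probe sets. Without CPB 2 there were 6 (7.14%, against 5.03% of all) and without Sham 2 also 6 (7.14%, against 9.24% of all). By the methods' t-test on log2 values, 1 member, CCR1, had an unadjusted p under 0.05 (1.19%, against 2.08% of all) and 0 passed after adjustment.

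The 3 CPB values and the 3 Sham values did not overlap for 6 members, which is 7.14%, against 5.27% of all probe sets. CPB lay above Sham for CCL25, IL12A and IL4R (3.57%, against 3.38% of all), and below Sham for CCR1, CXCR4 and IL15 (3.57%, against 1.89% of all). The mean log2 intensity was higher in CPB for 47 members (56.0%), against 55.9% of all probe sets. The median log2 difference was 0.05 for ligands, 0.01 for receptors and 0.03 for all probe sets. A difference of 1.6-fold or more, without regard to a test, was seen for CXCL2 and CXCL9 alone, against 3.14% of all probe sets.

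The 95% confidence interval of the difference, given as the interval below, lay within 1.6-fold in both directions for 47 members and reached 1.6-fold in at least 1 direction for 37 (44.0%), against 37.5% of all probe sets. Precision is limited by the number of animals, 3 in each group. Apart from that, a two-sided exact permutation test of 3 against 3, which was not run, has a smallest p of 0.1.

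**Figure D1:**
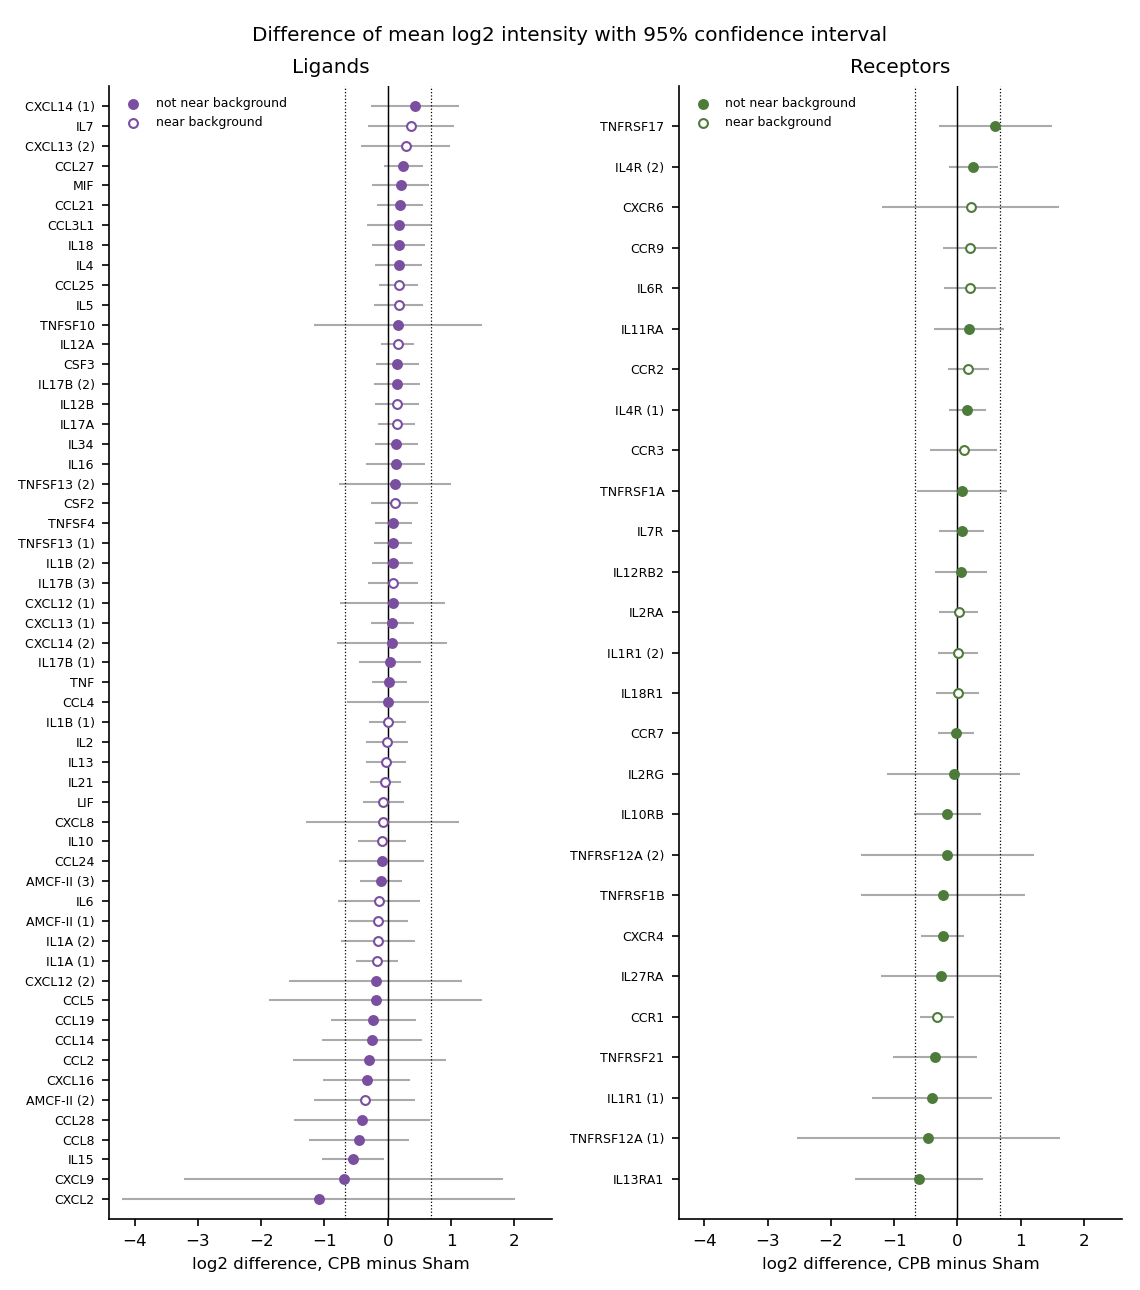
Difference of mean log2 intensity, CPB minus Sham, of every ligand (left) and receptor (right) probe set, as points with 95% confidence intervals from limma. Open points are near background, dotted lines mark 1.6-fold, and numbers in parentheses tell probe sets of 1 gene apart. The widest intervals belong to CXCL2, CXCL9 and TNFRSF12A, and the intervals of CCR1 and IL15 alone leave out 0.

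Many of these genes gave low intensities. A probe set was called near background where its mean log2 intensity over the 6 arrays was among the lowest 33.3% of all probe sets, at or below an intensity of 54.3. This held for 30 of the 84 members (35.7%), 21 of ligands and 9 of receptors. The share was 33.3% of all probe sets, by construction, and 21.1% of probe sets annotated with 1 symbol, as all members are. For 60 probe sets of 45 genes restricted to other tissues, such as pituitary hormones and milk proteins, the median intensity was 44.5. Some of these were bright in the medulla, with up to 4382 for AMY2, 1069 for MBP and 610.3 for MSMB. At the 90th percentile of those genes, an intensity of 117 that 2 AMY2 probe sets set, 39 ligand and 17 receptor probe sets lay at or below the level. Signal over background of each probe is not known, since the array's own detection calls were not used here, and intensities of different probe sets are not on 1 scale of abundance.

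All probe sets were near background for 15 ligand genes: CCL25, CSF2, CXCL8, IL10, IL12A, IL12B, IL13, IL17A, IL1A, IL2, IL21, IL5, IL6, IL7 and LIF. This list holds the T cell interleukins IL2, IL5, IL13, IL17A and IL21, and the acute inflammatory ligands IL6, CXCL8 and IL1A. Of the same kinds, IL4, TNF, CXCL2 and the brighter IL1B probe set were not near background, though IL4 and TNF were close to the level. For 8 receptor genes all probe sets were also near background: CCR1, CCR2, CCR3, CCR9, CXCR6, IL18R1, IL2RA and IL6R. Of AMCF-II, CXCL13, IL17B, IL1B and IL1R1, some probe sets were near background and others were not. At the other end, 10 of the 84 members were among the brightest 20% of all probe sets, and 35 lay above the median probe set. Of the 10069 probe sets annotated with 1 symbol, 2898 were among that 20% and 6399 lay above the median.

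**Figure D2:**
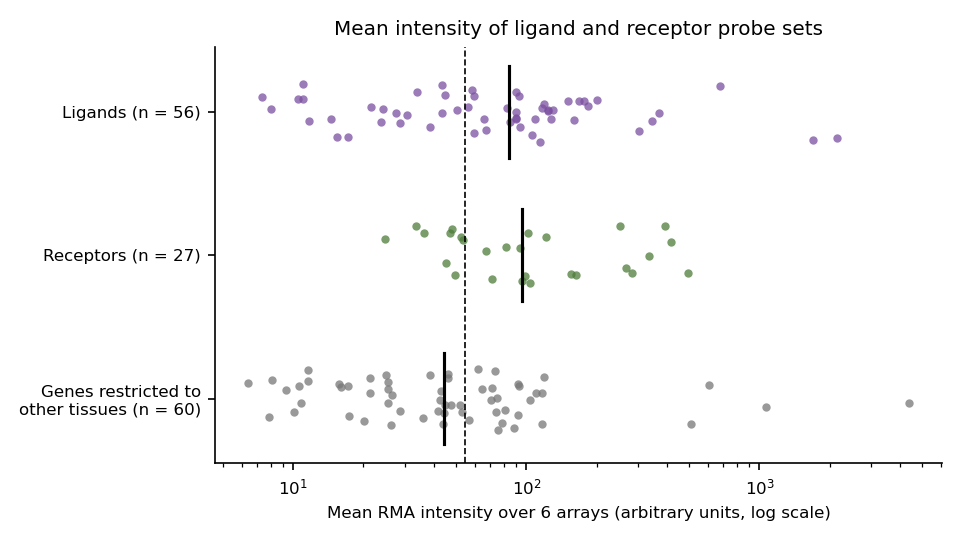
Mean RMA intensity over the 6 arrays (log axis) of each ligand probe set (56), receptor probe set (27) and probe set of genes restricted to other tissues (60), with the median of each as a bar. The dashed line is the near-background level of 54.3, at or below which 21 ligand and 9 receptor probe sets lie.

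Of the CC chemokine ligands, 12 probe sets of 12 genes were measured, and 1 (CCL25) was near background. Differences ran from -0.45 to 0.25 with a median of -0.14, and 5 of the 12 means were higher in CPB. CCL5, which attracts T cells and monocytes, measured 219, 1010.1 and 190.1 in CPB medulla, against 548, 258 and 444 in Sham medulla. The highest value was that of CPB 2 and the lowest was that of CPB 3, so that the CPB group enclosed the Sham group, and the difference was -0.19 (interval -1.87 to 1.49). Without CPB 2 it was -0.96 and met the study's threshold, as 2.89% of all probe sets then did, and without CPB 3 it was 0.24.

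CCL28, a chemokine of mucosal epithelium, measured 205, 334 and 273 in CPB medulla, against 637, 196 and 349.6 in Sham medulla, with Sham 1 highest and Sham 2 lowest (difference -0.41, interval -1.49 to 0.67). CCL2, the main attractant of monocytes, measured 147, 259.8 and 122 in CPB medulla, against 408, 149 and 139.7 in Sham medulla. Sham 1 stood highest and the other Sham values lay within the CPB range (difference -0.29, interval -1.50 to 0.92). CCL8, a related attractant of monocytes that was singled out after its values were seen, measured 99.8, 123 and 95.5 in CPB medulla, against 169.6, 87.9 and 202 in Sham medulla. Sham 2 was the lowest of the 6 and the other Sham values were the highest (difference -0.45, interval -1.25 to 0.34), and without Sham 2 the difference was -0.81 and met the study's threshold, while without Sham 3 it was -0.21.

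CCL25, known from thymus and small intestine as the ligand of CCR9, measured 54.2, 53.5 and 52.6 in CPB medulla, against 48.9, 52.5 and 41.6 in Sham medulla. The groups did not overlap, but the lowest CPB and highest Sham values were almost the same, all were near background, and the difference was 0.17 (interval -0.14 to 0.48). CCL14, singled out after its values were seen, measured 152, 237 and 173 in CPB medulla and 346, 169 and 179 in Sham medulla, and Sham 1 alone exceeded the CPB range. The other 6 CC ligands, CCL3L1, CCL4, CCL19, CCL21, CCL24 and CCL27, had differences between -0.23 and 0.25, and the groups of all 6 overlapped. Among them CCL21 and CCL19, ligands of CCR7 that guide cells into lymphoid tissue, differed by 0.20 and -0.23.

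Of the CXC chemokine ligands, 13 probe sets of 8 genes were measured. Differences ran from -1.09 to 0.43 with a median of -0.11, 5 of the 13 means were higher in CPB, and all 13 overlapped. CXCL2, an attractant of neutrophils that was singled out after its values were seen, showed the widest range of any member. It measured 39.0, 352 and 48.6 in CPB medulla, against 393, 35.9 and 458 in Sham medulla, so that the highest array was 12.8-fold above the lowest. Each group held both high and low animals: CPB 2, Sham 1 and Sham 3 were high, and CPB 1, CPB 3 and Sham 2 were low. The difference was -1.09 (interval -4.20 to 2.02), and with 1 array left out it lay between -2.28 (without Sham 2) and -0.44 (without Sham 3).

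CXCL9, an interferon-induced attractant of T cells, had the same high and low animals, with 155, 1144 and 114 in CPB medulla, against 561, 171 and 891 in Sham medulla (difference -0.70, interval -3.21 to 1.82). The highest and lowest of the 6 values were both CPB values, and the difference was -1.73 without CPB 2 and -0.07 without CPB 3. CXCL8, known as interleukin-8 and a classic attractant of neutrophils, was near background on every array, at 8.50, 24.1 and 7.11 in CPB medulla and 13.3, 8.64 and 15.03 in Sham medulla, again with CPB 2 highest (difference -0.08, interval -1.30 to 1.13).

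CXCL16, the membrane-bound ligand of CXCR6, measured 542, 923 and 442 in CPB medulla, against 728, 723 and 839 in Sham medulla. CPB 2 was above and the other CPB animals were below all Sham animals (difference -0.33, interval -1.02 to 0.35). The probe sets of AMCF-II, a porcine attractant of neutrophils, did not agree in level. The brightest measured 1672, 1606 and 1648 in CPB medulla, against 1610.1, 1659.8 and 2066 in Sham medulla. Sham 3 was high there and the other 5 arrays were close together (difference -0.11, interval -0.43 to 0.22). The other 2 probe sets were near background, with values of 6.23 to 13.4 in CPB medulla and 7.44 to 16.9 in Sham medulla and differences of -0.15 and -0.36, and which of the 3 measures the mRNA of AMCF-II was not tested.

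CXCL12, the ligand of CXCR4 made by stromal cells, and CXCL14, made by epithelium, were singled out after their values were seen, and each had 2 probe sets. CXCL12 measured 191, 54.7 and 171 in CPB medulla, against 105, 228 and 112 in Sham medulla, on one of them, with Sham 2 and CPB 1 and 3 high and CPB 2 lowest. On the other it measured 122, 81.9 and 160.1 in CPB medulla, against 84.5, 163 and 98.8 in Sham medulla, with the same 3 animals high. The differences of -0.19 and 0.08 had opposite signs and were smaller than the range within either group. CXCL14 differed by 0.43 and 0.07, and CPB 2 was highest on both probe sets. CXCL13, the attractant of B cells, differed by 0.07 on its brighter probe set.

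Of the TNF superfamily ligands, 5 probe sets of 4 genes were measured and 0 were near background. Differences lay between 0.02 and 0.16, and all 5 means were higher in CPB, also after a second quantile normalization, but all 5 groups overlapped. With 1 array left out, the difference fell as low as -0.013 for TNF and -0.35 for TNFSF10. TNF, the family's central inflammatory ligand, measured 62.9, 62.1 and 54.7 in CPB medulla, against 58.0, 62.0 and 56.7 in Sham medulla, which are close to the near-background level. The 6 values lay within 1.15-fold of each other, and the difference of 0.02 had an interval -0.25 to 0.30, inside 1.6-fold. TNFSF10, which can trigger apoptosis and was singled out after its values were seen, measured 264, 58.9 and 143 in CPB medulla, against 129, 89.5 and 138 in Sham medulla, and the CPB values enclosed the Sham values. TNFSF4, a ligand that costimulates T cells, and TNFSF13, a B cell ligand with 2 probe sets, differed by 0.08 to 0.11.

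Of interleukin-1 family ligands, 5 probe sets of 3 genes were measured, with differences of -0.16 to 0.18. IL18, which needs cleavage by caspase-1 to become active, measured 88.5, 119.8 and 83.9 in CPB medulla, against 82.3, 93.8 and 80.03 in Sham medulla. CPB 2 was highest, the other CPB animals lay within the Sham range, and the difference was 0.18 (interval -0.24 to 0.59), or 0.02 without CPB 2. Its soluble inhibitor IL18BP measured 154, 194 and 143 in CPB medulla, against 181, 198 and 158 in Sham medulla (difference -0.14, interval -0.54 to 0.26), and the groups overlapped. IL1B, likewise cleaved by caspase-1, measured 106, 82.9 and 101 in CPB medulla, against 88.4, 95.4 and 89.1 in Sham medulla, on its brighter probe set (difference 0.08, interval -0.24 to 0.41). Its other probe set was near background, at 21.8 to 25.5 in CPB medulla and 22.3 to 25.6 in Sham medulla.

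The ligands of receptors with the common gamma chain or related chains (6 genes, 1 probe set each) had 4 members near background. IL15, which sustains natural killer cells and memory T cells, was not near background and measured 101, 90.8 and 97.1 in CPB medulla, against 179, 107 and 145 in Sham medulla. All CPB values were lower than all Sham values in IL15, the CPB values were close together, and Sham 1 and Sham 3 were far above Sham 2. The difference was -0.55 (SE 0.20, interval -1.04 to -0.05), a size of 1.46-fold, with an unadjusted p of 0.0354 and an adjusted p of 0.995 in limma. Of the fits with 1 array left out, it met the study's threshold in the one without Sham 2 (-0.74), as 2.92% of all probe sets then did, and without Sham 1 it was -0.37. IL4, IL7, IL2, IL13 and IL21 had differences between -0.04 and 0.37, and the groups of all 5 overlapped.

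All 4 ligands of the gp130 and interleukin-12 families were near background. IL6, the acute-phase cytokine, measured 23.3, 37.1 and 29.0 in CPB medulla, against 31.7, 24.4 and 42.9 in Sham medulla, and Sham 3 and CPB 2 were the highest (difference -0.14, interval -0.79 to 0.51). IL12A, a subunit of interleukin-12, measured 18.3, 17.6 and 18.4 in CPB medulla, against 15.02, 16.9 and 16.9 in Sham medulla. All CPB values were above all Sham values, by a narrow gap at low intensity (difference 0.16, interval -0.11 to 0.42). IL10, an anti-inflammatory cytokine, measured 31.1, 26.1 and 23.3 in CPB medulla, against 30.8, 25.1 and 29.5 in Sham medulla (difference -0.09, interval -0.47 to 0.29), also near background. The interleukin-17 ligands (4 probe sets) differed by 0.04 to 0.15, and CSF2, CSF3, IL5 and IL34 by 0.11 to 0.17, with overlap in all 8.

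MIF, a cytokine stored in many cell types including tubular epithelium, was among the brightest 20% of all probe sets and measured 2042, 2918 and 2084 in CPB medulla, against 2200.4, 1748 and 2100.5 in Sham medulla. CPB 2 was the highest, the other CPB animals lay within the Sham range, and the difference was 0.21 (interval -0.25 to 0.66), or 0.04 without CPB 2. IL16, an attractant of CD4+ cells, differed by 0.13, also with CPB 2 highest.

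Of the receptors for chemokines, 7 probe sets of 7 genes were measured and 5 were near background. CCR1, a receptor of CCL5 on monocytes and neutrophils, measured 43.1, 46.1 and 43.6 in CPB medulla, against 58.5, 50.9 and 56.9 in Sham medulla. All CPB values were lower than all Sham values, and 4 of the 6 values were below the near-background level. The difference was -0.32 (SE 0.11, interval -0.59 to -0.05), a size of 1.25-fold, with an unadjusted p of 0.0265 and an adjusted p of 0.995 in limma. With 1 array left out at a time it stayed between -0.38 and -0.28.

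CXCR4, the receptor of CXCL12, measured 157, 150.3 and 123 in CPB medulla, against 182, 159 and 163 in Sham medulla. CPB lay below Sham, with CPB 1 and Sham 2 almost equal and the interval across 0 (difference -0.23, interval -0.57 to 0.10). CXCR6, the receptor of CXCL16 on T and natural killer cells, was singled out after its values were seen. It measured 35.7, 129 and 28.2 in CPB medulla, against 51.4, 38.9 and 42.3 in Sham medulla, so that CPB 2 alone was high and the other CPB values were below all Sham values. The difference was 0.21 (interval -1.19 to 1.6) with CPB 2 and -0.47 without it. CCR2, CCR3, CCR7 and CCR9 differed by -0.03 to 0.20, with overlap in all 4.

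The TNF receptors were measured with 6 probe sets of 5 genes, all brighter than the median of all probe sets. All 6 groups overlapped, 2 of the 6 means were higher in CPB, and no interval lay inside 1.6-fold. TNFRSF12A, the receptor of the ligand TWEAK, measured 106, 820.4 and 137 in CPB medulla, against 418, 165 and 450.3 in Sham medulla, on one probe set. On the other it measured 194, 735 and 227 in CPB medulla, against 404, 236 and 473 in Sham medulla. CPB 2 was highest, Sham 1 and Sham 3 came next, and CPB 1 was lowest on both. The differences were -0.46 (interval -2.54 to 1.62) and -0.16 (interval -1.53 to 1.21), and without CPB 2 the first was -1.39 and met the study's threshold, while without CPB 1 it was 0.09.

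TNFRSF1B, the TNF receptor found mainly on leukocytes and endothelium, had the same high animals, with 285, 814 and 246 in CPB medulla, against 624, 285 and 521 in Sham medulla (difference -0.23, interval -1.53 to 1.06). TNFRSF1A, the TNF receptor present on most cells, measured 375, 583 and 298 in CPB medulla, against 489.9, 318 and 358 in Sham medulla (difference 0.07, interval -0.64 to 0.79). CPB 2 was highest and CPB 3 lowest, so the CPB group enclosed the Sham group. TNFRSF21, a death receptor, measured 449, 574 and 318 in CPB medulla, against 505, 472 and 727 in Sham medulla, with Sham 3 highest and CPB 3 lowest (difference -0.36, interval -1.02 to 0.30). TNFRSF17, a receptor of plasma cells that was singled out after its values were seen, ran in another order, with 152, 78.5 and 164 in CPB medulla, against 63.3, 119 and 74.3 in Sham medulla. CPB 1, CPB 3 and Sham 2 were its highest animals, the difference was 0.60 (interval -0.29 to 1.49), and without CPB 2 it was 0.94 and met the study's threshold, while without CPB 3 it was 0.41.

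Of the receptors with the common gamma chain or related chains, IL4R had 2 probe sets. On the brighter it measured 291, 381 and 270.2 in CPB medulla, against 268, 268 and 249 in Sham medulla, with all CPB values above all Sham values and CPB 2 far above the rest (difference 0.25, interval -0.14 to 0.63). On the other it measured 176, 163 and 178 in CPB medulla, against 144, 172 and 148 in Sham medulla, where CPB 2 was the lowest CPB value and the groups overlapped (difference 0.16, interval -0.14 to 0.45). IL13RA1, which pairs with IL4R, and IL2RG, the common gamma chain itself, were singled out after their values were seen. IL13RA1 measured 97.9, 39.4 and 113 in CPB medulla, against 113, 98.4 and 138 in Sham medulla, and CPB 2 alone was low (difference -0.60, interval -1.62 to 0.41). IL2RG measured 66.6, 169 and 74.1 in CPB medulla, against 146, 73.9 and 87.3 in Sham medulla, with CPB 2 and Sham 1 high (difference -0.06, interval -1.11 to 1.00). IL2RA and IL7R differed by 0.02 and 0.07.

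IL11RA, which binds interleukin-11 together with gp130, was among the 6 brightest receptor genes and measured 242, 371 and 216 in CPB medulla, against 249.9, 208 and 254 in Sham medulla. CPB 2 was high, the other 5 were close together, and the difference was 0.18 (interval -0.37 to 0.74). IL1R1, the signalling receptor of interleukin-1, was singled out after its values were seen, with 108, 111 and 98.5 in CPB medulla, against 216, 74.9 and 168 in Sham medulla, on its brighter probe set. The CPB values were close together and the Sham values lay on both sides of them (difference -0.40, interval -1.36 to 0.55), and without Sham 2 the difference was -0.85 and met the study's threshold, while without Sham 1 it was -0.09. IL27RA, singled out likewise, measured 81.7, 163 and 63.1 in CPB medulla and 117, 85.1 and 144 in Sham medulla, with CPB 2 and Sham 3 highest. IL6R, IL12RB2, IL18R1 and IL10RB differed by -0.16 to 0.20, with overlap in all 4.

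**Figure D3:**
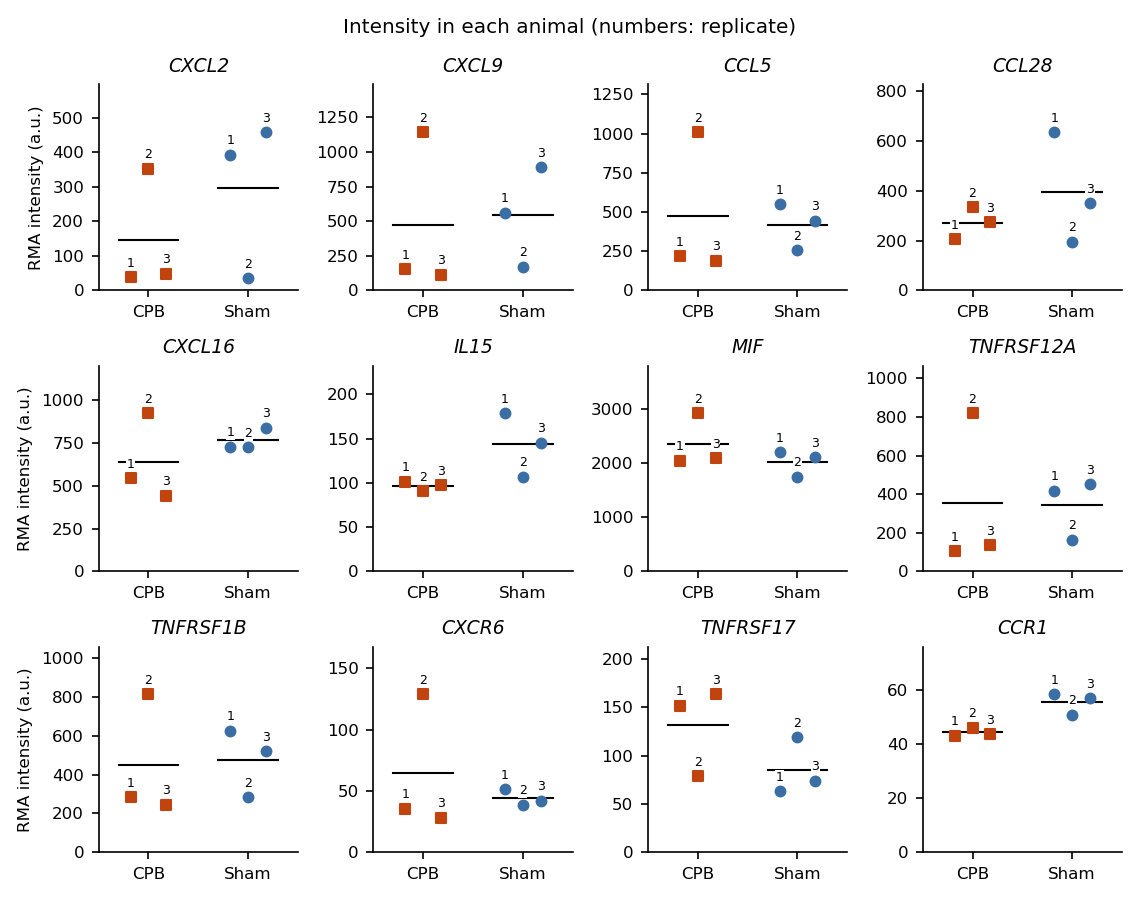
RMA intensity of 12 members in each animal (linear axes that start at 0, own scale per gene), CPB as squares on the left and Sham as circles on the right, with the replicate number beside each point and the group mean as a line. CXCL2, CXCL9, CCL5, TNFRSF12A (the probe set with the wider range) and TNFRSF1B were high in CPB 2, Sham 1 and Sham 3, and the groups separate for IL15 and CCR1 alone.

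For most members, as for most probe sets on the array, single animals differed by more than the groups did. The range of log2 values within both groups was above the difference of the means for 65 members (77.4%), against 80.6% of all probe sets. The highest array was at least 4-fold above the lowest for 7 members (8.33%), against 5.6% of all: CXCL2, CXCL9, TNFRSF12A, CCL5, CXCR6, TNFSF10 and CXCL12. Another 40 members (47.6%) stayed within 1.5-fold over all 6 arrays, and 21 of these were near background. TNF, IL1B, IL10 and CCR7 belong to these 40. The share of all probe sets that stayed within 1.5-fold was not counted, so whether 47.6% is usual on this array is not known.

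CPB 2 held the highest value of 26 members (31.0%), against 20.9% of all probe sets, and Sham 1 held the lowest value of 22 (26.2%), against 22% of all. Among the 54 members that were not near background, CPB 2 was highest for 21 (38.9%), against 23.7% of all probe sets at such levels. Of the 27 receptor probe sets, 11 (40.7%) were highest in CPB 2, against 20.9% of all probe sets. In CPB 1, 0 of the 27 were highest, but CPB 1 was seldom highest on the array, at 8.91% of all probe sets. Of the 25 chemokine ligand probe sets, 8 were highest in CPB 2, against the same 20.9% of all. In CPB 3, 9 of the 25 were lowest, against 18.5% of all. Whether these counts differ from those of all probe sets was not tested.

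CXCL2, CXCL9, CCL5, TNFRSF12A and TNFRSF1B had the same 3 high animals, in an order that differed between genes. These animals were also high in several marker lists. Urothelium markers were likewise high in CPB 2, Sham 1 and Sham 3, at 0.67, 0.46 and 1.53 log2 units from the mean of the 6 arrays, while proximal tubule markers were lowest in the same animals, at -1.47, -2.12 and -0.33. Markers of T, B and NK lymphocytes (12 of 24 measured, 5 near background) were highest in CPB 2, with a summed intensity of 1770 there, against 829 and 862 on the other CPB arrays and 961 to 1272 on Sham arrays. Myeloid and granulocyte markers (21 of 32 measured, 7 near background) summed to 2292 to 2863 on CPB arrays and 2606 to 3600 on Sham arrays, and endothelial markers (15 of 23, 3 near background) to 1792 to 3659 on CPB arrays and 2426 to 4405 on Sham arrays. Fibroblast and pericyte markers (13 of 15, 1 near background) summed to 5763 to 10294 on CPB arrays and 6457 to 16616 on Sham arrays. Endothelial markers had the same animals above the mean, at 0.44, 0.51 and 0.21 in CPB 2, Sham 1 and Sham 3. By summed intensity those 3 animals were also the highest in the lymphocyte, myeloid, endothelial and fibroblast lists. By centred log2 mean, however, lymphocyte markers were lower in Sham 3 (-0.11) than in Sham 2 (-0.09). Fibroblast and pericyte markers were lower in CPB 2 (-0.08) than in CPB 1 (0.02), and myeloid markers in CPB 2 were at -0.002. The part of these cell types in the values of the cytokine genes was not tested. With the proximal tubule markers as a covariate, CXCL9 differed by 0.04, CCL5 by 0.34, TNFRSF1B by 0.19 and TNFRSF12A by 0.17 and 0.24. These signs were opposite to those without the covariate, and CXCL2 kept its sign, at -0.14. The genes are listed here because the same animals were high, and why signs changed was not tested. In the fit with this covariate, the count of members with an unadjusted p under 0.05 was 4 (4.76%, against 2.43% of all probe sets).

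**Figure D4:**
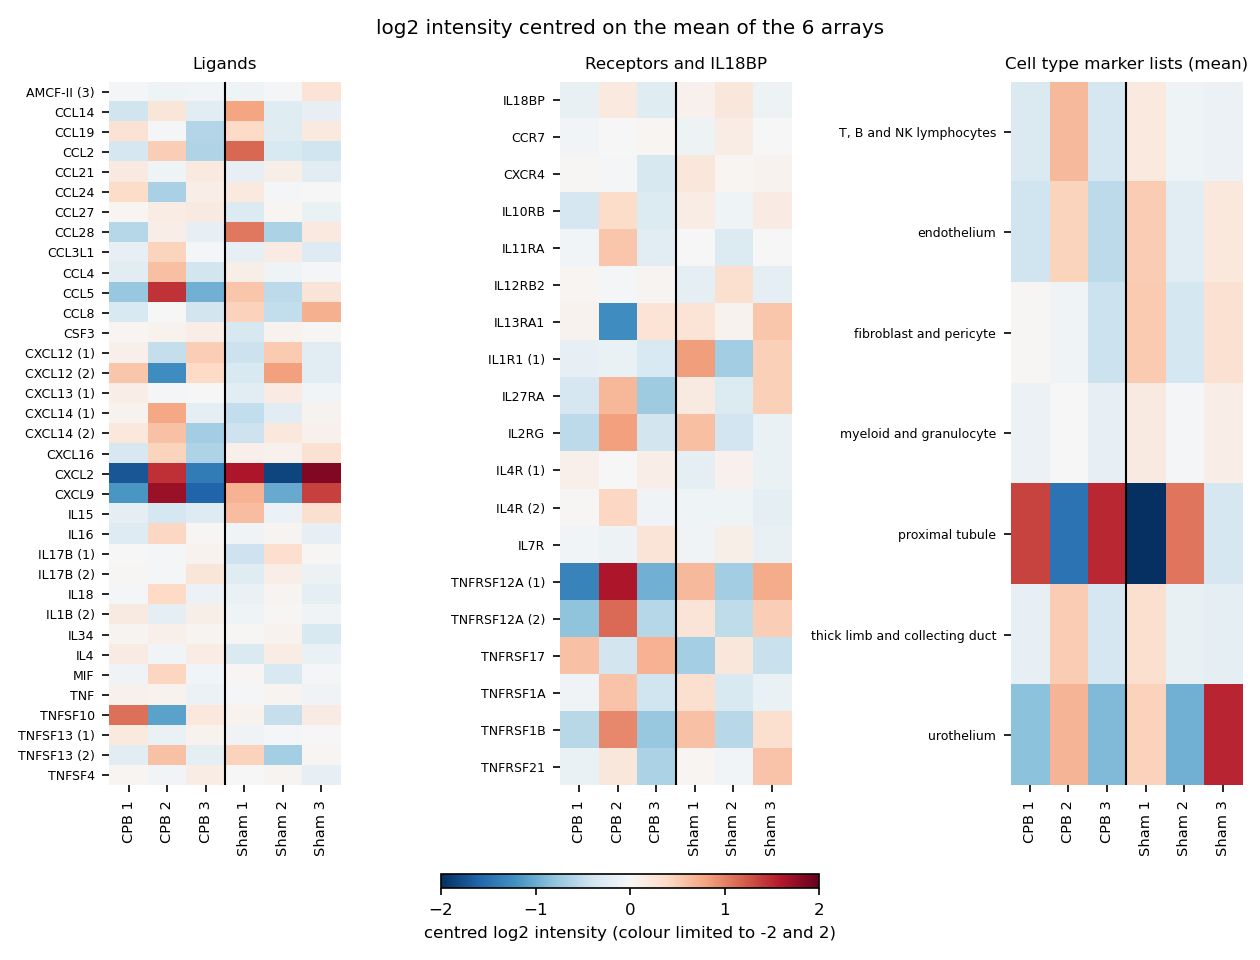
log2 intensity of the 54 members not near background, centred on the mean of the 6 arrays, for ligands (left) and for receptors with IL18BP (middle), with the mean of each cell type marker list (right). Columns are CPB 1 to 3 and Sham 1 to 3. CXCL2, CXCL9, CCL5 and TNFRSF12A are high in CPB 2, Sham 1 and Sham 3, as are urothelium markers, and proximal tubule markers are low there.

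Several members are neighbours in the genome. In the order of coding genes in RefSeq (Sscrofa11.1), CXCL8 is next to AMCF-II, CXCL2 follows within 4 coding genes, and CXCL9 and CXCL13 lie further along the same stretch. CCR1, CCR3 and CCR2 are consecutive, with CXCR6 and CCR9 before them. IL2 is next to IL21, IL4 next to IL13, and IL1A next to IL1B. Set side by side, CCR1 had a difference of -0.32 and CCR2 one of 0.17, both near background. The highest array was 10.1-fold above the lowest for CXCL9, and 1.31-fold for CXCL13 on its brighter probe set.

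Genes that act downstream of these receptors were counted from fixed lists. Of 25 listed JAK, STAT and SOCS genes, 16 were measured with 29 probe sets, of which 0 met the study's threshold and 0 had an unadjusted p under 0.05, against 0.304% and 1.4% of all probe sets (median difference 0.04). The smallest p-values belonged to PTPN6, JAK2, STAT5B and SOCS1, with differences of 0.21, -0.44, 0.15 and 0.20 and overlap in all 4. Each is the value of the gene's probe set with the smallest p, which for PTPN6 was near background. Other probe sets differed by 0.04 for PTPN6, -0.19 for JAK2, 0.05 for STAT5B, and 0.14 and 0.15 for SOCS1. Of 39 listed genes of NF-kB and of TNF or interleukin-1 receptor signalling, 17 were measured with 29 probe sets, of which 0 met the study's threshold (median difference 0.07).

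TOLLIP, an adaptor that restrains interleukin-1 receptor signalling, was the 1 probe set of that list with an unadjusted p under 0.05 (3.45%, against 1.4% of all probe sets). It measured 696, 489.8 and 718 in CPB medulla, against 472, 477 and 424 in Sham medulla, and all CPB values were higher than all Sham values (0.45, SE 0.18, unadjusted p = 0.0437 and adjusted p = 0.995 in limma). NFKBIB, an inhibitor of NF-kB, CFLAR, an inhibitor of caspase-8, and TRAF6, an adaptor of interleukin-1 receptors, followed with differences of 0.48, -0.35 and -0.39 and overlapping groups. On their other probe sets, with larger p-values, the differences were 0.27, -0.23 and 0.02, and TRAF6 was near background on both. Of 30 related ligands and receptors whose symbols the rule does not take, such as CD40, LTA and KITLG, 11 were measured with 13 probe sets. Of these 8 were near background, 0 had an unadjusted p under 0.05, and XCR1, KITLG, CD40 and CCRL2, with the smallest p-values, differed by 0.25, 0.21, 0.06 and 0.08. Other probe sets of CD40 differed by 0.02 and -0.02.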

How the data were processed

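RNA of renal medulla from 3 CPB and 3 Sham pigs was hybridised to separate Affymetrix porcine arrays, and the authors normalised the raw files with RMA (background correction, quantile normalisation and median polish) in ArrayStar. The deposited values are RMA intensity on a linear scale for 24123 probe sets. The raw files were not used here.

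The 124 control probe sets were left out and log2 was taken without a pseudocount. The group was the single term of a linear model in limma 3.58.1 (R 4.3.3), moderated with eBayes. The fit ran over all 23999 probe sets, with Benjamini-Hochberg adjustment, and the script was tested on simulated data. An unadjusted Student's t-test, as in the study, was an alternative, called the methods' t-test. Other alternatives, with each array left out in turn among them, are given with the limits.

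Symbols are those of the array annotation, and all 84 members matched a RefSeq gene (Sscrofa11.1) of the same symbol by gene identifier. Genome positions are not given, since a build for the array is not given in the sources used here. Ligands and receptors were told apart by hand. The members and all lists were chosen with earlier results of these data known. Values on every array are given for members with an unadjusted p under 0.05 or without overlap, for the 6 brightest ligand and 6 brightest receptor genes, for IL18, IL6, TNF, CXCL8, AMCF-II, CCL2, MIF, IL1B, IL10 and CXCR4, and for the genes named as singled out. The 4 genes with the smallest p were named from each downstream list. ACKR3, IL1RN and IL6ST, also in that rule, had no probe set under those symbols.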

Additional observations from a re-analysis of the deposited data

How the results depend on the processing

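The counts of 0 members at the study's threshold and past an adjusted p of 0.05 held under the methods' t-test (log2 or linear values), the intensity trend with robust prior, both other scalings, control or dim probe sets in or out, the proximal tubule covariate, and the replicate block, as did the first with fold minimums of 1.5 and 2. With array weights 7 members met the study's threshold (AMCF-II, CCL28, CCL8, CXCL2, CXCL9, TNFRSF12A and TNFRSF17), against 7.12% of all probe sets, and 17 had an unadjusted p under 0.05, against 17.3% of all. With 1 array left out, the first count ranged from 0 to 3 and the second from 0 (without CPB 1, CPB 3, Sham 1 or Sham 3) to 6 (without CPB 2, against 5.03% of all, or Sham 2, against 9.24%). The first was 3 without CPB 2 (CCL5, TNFRSF12A, TNFRSF17; 2.89% of all) and 3 without Sham 2 (CCL8, IL15, IL1R1; 2.92% of all), and the adjusted count was 0 throughout. The count of 2 members with an unadjusted p under 0.05 was 1 under the methods' t-test on log2 values (CCR1, 2.08% of all), 1 on linear values (CCR1, 2.08%), 1 without dim probe sets (IL15, 1.08%) and 4 with the proximal tubule covariate (CCR1, CXCL12, MIF and TNFSF13, 2.43%). With the replicate number as a block it was 1 (IL15, 1.12%). Deviations of arrays with the same number correlated at -0.39, -0.68 and -0.02. Those of arrays with different numbers correlated at -0.71 to 0.70, so these values cannot tell whether the numbers pair the animals. The receptor median of 0.01 was -0.11 without dim probe sets and -0.05 to 0.09 with 1 array left out, and the ligand median 0.02 to 0.08. With 1 probe set per gene the medians were 0.05 for ligands and 0.01 for receptors. With the near-background level moved to an intensity of 37.8, 96.3 or 117, there were 19, 49 or 56 members at or below it. The causes were not tested.

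Signs of several differences depended on the setting. Values of IL1B and IL1R1 here are those of the dimmer probe set. For CXCL12, the value with the covariate is of the probe set whose difference was 0.08. Its value with array weights is of the one whose difference was -0.19. With the proximal tubule covariate CCL2 differed by 0.079, CCL5 by 0.34, CXCL8 by 0.27, CXCL9 by 0.040, IL1B by -0.056, TNFRSF12A by 0.17 and 0.24, TNFRSF1B by 0.19, CXCL12 by -0.18, IL1R1 by -0.0055, IL2RG by 0.29 and TNFSF10 by -0.053. As log2 ratios of the means of linear values CCL5 differed by 0.18, CXCL8 by 0.10, TNFRSF12A by 0.041 and 0.053 and IL2RG by 0.013. With array weights IL11RA differed by -0.0061, TNFRSF1A by -0.13, CXCL12 by 0.50, CXCR6 by -0.27 and IL1R1 by -0.0012, and after a second quantile normalization IL1B differed by -0.015.

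With 1 array left out, 23 of the 44 named probe sets had a change of sign in at least 1 fit. For AMCF-II that was the brightest probe set, and for CXCL14, IL1B and IL1R1 the dimmer. The ranges were -0.17 to 0.0061 for AMCF-II, -0.44 to 0.080 for CCL14, -0.61 to 0.21 for CCL2, -0.83 to 0.020 for CCL28, -0.96 to 0.24 for CCL5, -0.15 to 0.36 and -0.52 to 0.38 for CXCL12, -0.21 to 0.43 for CXCL14, -0.63 to 0.25 for CXCL8 and -0.47 to 0.63 for CXCR6. They were -0.20 to 0.0058 for IL10, -0.049 to 0.34 for IL11RA, -0.050 to 0.061 for IL1B, -0.080 to 0.085 for IL1R1, -0.65 to 0.031 for IL27RA, -0.48 to 0.23 for IL2RG, -0.34 to 0.071 for IL6 and -0.013 to 0.087 for TNF. They were -1.39 to 0.093 and -0.76 to 0.20 for TNFRSF12A, -0.19 to 0.29 for TNFRSF1A, -0.77 to 0.091 for TNFRSF1B and -0.35 to 0.73 for TNFSF10. The brighter probe sets of CXCL14 (0.15 to 0.64), IL1B (0.0094 to 0.19) and IL1R1 (-0.85 to -0.089) kept their sign, as did the dimmer ones of AMCF-II. Of those that kept their sign in all 6 fits, the ranges were 0.017 to 0.27 for IL18, 0.040 to 0.30 for MIF, -0.74 to -0.37 for IL15, -0.38 to -0.28 for CCR1, -0.30 to -0.13 for CXCR4, 0.076 to 0.24 for CCL25, -0.64 to -0.11 for CXCL16, -0.56 to -0.14 for TNFRSF21 and -0.89 to -0.13 for IL13RA1.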
